A study of Sus scrofa with 14 samples.

Results

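Constitutive compartment A was taken as the 20-kb bins of the pig genome in which the first principal component (PC1) of the Hi-C contact matrix was above 0 in all 7 adipose tissue Hi-C libraries. On 17 autosomes, without chromosome 10, 46108 of 109830 bins met this rule, and the series has 113298 autosomal bins in all. The bins were therefore chosen by their measured PC1, and their PC1 values and number are given as a description without a test. Hi-C and RNA-seq libraries had been made from 2 fat depots, the greater omentum (GOM, visceral) and the upper layer of backfat (ULB, subcutaneous), of healthy 2-year-old female pigs, 2 wild boars and 2 Bama pigs. The wild boars were wild-caught as young animals and the Bama pigs came from an ordinary, not long-inbred stock. Both were raised on 1 farm under the same feeding, and no treatment or genetic change is named for any group. Each assay had 7 libraries, with 2 for the GOM of each breed, 2 for wild boar ULB and a single one (replicate 2) for Bama pig ULB. The paper took a further Bama pig ULB library per assay from an earlier study, which is not among these. Each RNA-seq library is a bulk tissue, in which fewer cells of a type and less RNA per cell cannot be told apart. For Hi-C, the paper's protocol used the upper layer with the adipocytes after centrifugation of the cross-linked tissue. PC1 and TPM may therefore not come from the same mixture of cells.

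Chromosomes in the nucleus separate into compartment A, the open and gene-rich chromatin in which most transcription takes place, and compartment B, which is more closed, gene-poor and often lies at the nuclear lamina. A position in A is permissive, since genes there also need promoters and transcription factors that act in the cell type. Promoters fall broadly into CpG-rich ones, typical of genes that all cells use and of many developmental regulators, and CpG-poor ones, typical of genes used in few tissues.

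Of the 10264 genes placed by their start in constitutive A, 264 were silent, with a TPM (a transcript level scaled for transcript length and library size) below 0.1 in all 7 RNA-seq libraries. Promoter sequences of 2 silent and 2 expressed genes are shown to let the promoter classes be read. They were chosen after their values were seen, cover 250 bases before to 50 bases after the RefSeq gene start in Sscrofa11.1, and have every CG dinucleotide in capitals. PRM1 (protamine 1, which packs sperm DNA; chr3:31860837-31861136, plus strand) was silent with few CG pairs. NEUROG3 (a transcription factor of endocrine progenitor cells; chr14:72606313-72606612, minus strand) was silent with many. ADIPOQ (adiponectin, a hormone made by adipocytes; chr13:124633656-124633955, plus strand) was highly expressed with few CG pairs, and PSMA7 (a subunit of the proteasome core; chr17:61571467-61571766, minus strand) was expressed with many.
PRM1: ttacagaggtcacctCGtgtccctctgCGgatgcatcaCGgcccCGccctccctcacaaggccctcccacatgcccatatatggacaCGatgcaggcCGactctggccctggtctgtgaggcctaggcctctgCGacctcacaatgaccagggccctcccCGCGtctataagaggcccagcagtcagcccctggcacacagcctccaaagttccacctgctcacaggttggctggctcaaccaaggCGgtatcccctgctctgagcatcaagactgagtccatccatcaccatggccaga
NEUROG3: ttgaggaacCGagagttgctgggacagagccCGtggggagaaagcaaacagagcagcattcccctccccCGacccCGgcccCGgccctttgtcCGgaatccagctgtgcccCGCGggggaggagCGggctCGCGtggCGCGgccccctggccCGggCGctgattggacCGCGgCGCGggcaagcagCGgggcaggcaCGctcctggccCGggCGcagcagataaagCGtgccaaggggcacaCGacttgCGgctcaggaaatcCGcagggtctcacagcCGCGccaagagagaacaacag
ADIPOQ: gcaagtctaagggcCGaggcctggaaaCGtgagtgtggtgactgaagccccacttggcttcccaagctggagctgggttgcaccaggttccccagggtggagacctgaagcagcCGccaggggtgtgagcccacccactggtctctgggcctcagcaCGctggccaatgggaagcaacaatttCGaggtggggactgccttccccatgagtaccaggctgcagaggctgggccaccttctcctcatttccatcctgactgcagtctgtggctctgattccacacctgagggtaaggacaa
PSMA7: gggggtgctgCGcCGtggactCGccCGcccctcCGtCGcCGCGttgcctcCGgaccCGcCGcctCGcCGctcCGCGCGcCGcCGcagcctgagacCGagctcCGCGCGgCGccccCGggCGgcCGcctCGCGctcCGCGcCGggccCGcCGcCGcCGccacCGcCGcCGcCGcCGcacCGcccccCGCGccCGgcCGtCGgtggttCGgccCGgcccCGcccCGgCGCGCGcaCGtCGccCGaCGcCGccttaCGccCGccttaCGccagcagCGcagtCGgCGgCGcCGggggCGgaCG

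These 300-base windows held 10 CG pairs in PRM1, 29 in NEUROG3, 5 in ADIPOQ and 68 in PSMA7. The observed CG pairs divided by those predicted from the C and G content, the CpG ratio, were 0.376, 0.798, 0.183 and 1.26 in the same order. The 2 silent genes had an estimated count of 0 in all 7 libraries. For ADIPOQ, wild boar libraries gave TPM values of 2387 and 2911 (GOM) and 3882 and 4609 (ULB), and Bama pig libraries 3673 and 5332 (GOM) and 3040 (ULB). PSMA7 lay between 107 and 203 TPM in the 7 libraries. Silent and expressed genes therefore occurred with CpG-poor and with CpG-rich promoters inside constitutive A.

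Constitutive A covered 922 Mb, 42.0% of the length of the 17 autosomes. Constitutive B, with PC1 below 0 in all 7 libraries, covered 944 Mb (43.0%), and the other 16545 bins (15.1%) had PC1 of both signs. In single libraries between 82.8% and 86.4% of the A bins were constitutive. When PC1 was measured from each chromosome's median rather than from 0, 98.5% of the members stayed. A median PC1 of 26.0 to 30.8 per library was measured in the members, and 1.57% to 4.54% of them lay below 5. Just inside the threshold, the bin chr13:162540001-162560000 with the start of ARL6 (a small GTPase of the cilium) had a PC1 between 0.71 and 5.92. Just outside, the bin chr1:228140001-228160000 with the starts of NMRK1 and OSTF1 had a mean PC1 of 20.9 but -2.02 in Bama pig GOM replicate 2.

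The order of PC1 among the members was much the same in all libraries. Ranked within chromosomes, PC1 in replicate libraries correlated across bins with a coefficient of 0.92 to 0.93. The coefficient was 0.89 to 0.92 between the breeds within a depot, 0.85 to 0.91 between the depots within a breed, and 0.84 to 0.90 where both differed. Neighbouring bins share contacts and all libraries were normalized together, so these coefficients are descriptive. All 7 values were shared with another bin in 0.22% of members, of which 1 bin held a gene start.

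Members formed 2214 runs of neighbouring bins with a median length of 80 kb (quartiles 20 and 360 kb). Single bins made up 646 runs (29.2%) but 1.40% of the length, whereas the 254 runs of at least 1 Mb held 65.4% of it. Constitutive B had 2088 runs with the same median of 80 kb. At their ends, runs met a bin of mixed sign in 96.8% of cases and a constitutive B bin in 2.78%. Of the 2197 gaps between runs, 633 (28.8%) were a single bin, and joining runs across them left 1581 runs with a median of 160 kb.

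**Figure D1:**
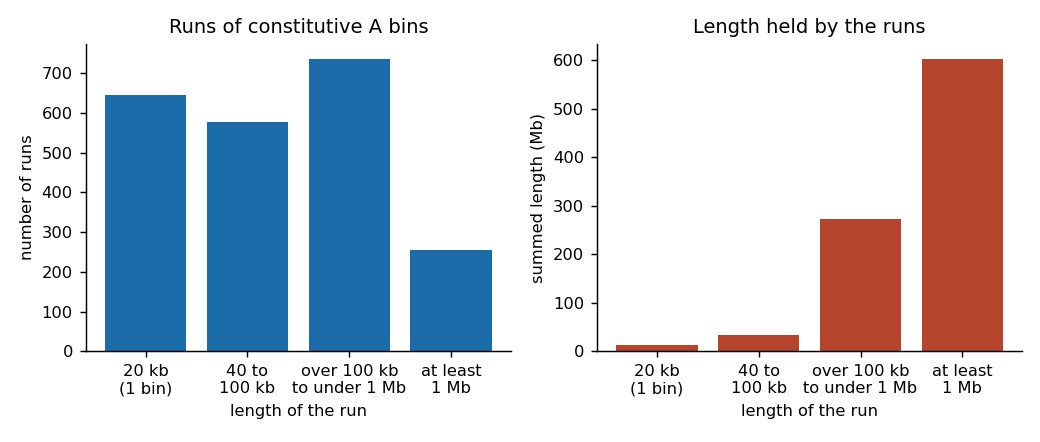
Number of runs of constitutive A bins (left) and their summed length in Mb (right) by length of the run on the horizontal axis, over 17 autosomes. The 254 runs of at least 1 Mb are the smallest class by number and hold 603 of 922 Mb.

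The longest run spanned 10.6 Mb at chr17:31440001-42020000 and held the starts of 145 genes, 15 of them silent. ROMO1 (a regulator of reactive oxygen species in mitochondria) and RBM39 (a splicing factor), with median TPM values of 719 and 355, were its most expressed genes. TMEM239, TMC2 (a channel protein of hair cells) and RSPO4 (an activator of WNT signalling) were its first silent genes by position. The run at chr2:1-10280000 held 254 genes, 9 of them silent, with RPLP2 (a ribosomal stalk protein) at 5071 and TALDO1 (transaldolase, of the pentose phosphate pathway) at 588 median TPM beside the silent LMNTD2, DRD4 (a dopamine receptor) and SYT8. The run at chr5:2420001-12020000 held 132 genes, 4 of them silent. LGALS1 (galectin 1) and RPL3 (a ribosomal protein) had median TPM values of 4459 and 933 there, and MCHR1 (a receptor of melanin-concentrating hormone), KCNJ4 (a potassium channel) and LGALS2 (galectin 2) were silent. LGALS1 and the silent LGALS2 are paralogues in the same run, on opposite strands. In these 3 runs 62.8%, 68.9% and 71.2% of the genes had a TPM above 1 in all 7 libraries.

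Constitutive A was present on every chromosome analysed, from 36.9% of the length of chromosome 2 to 48.7% of chromosome 12 (median 42.3%). Chromosome 1 was the most broken, with 456 runs of a median 40 kb. Within 2 Mb of a chromosome end 64.3% of bins were constitutive A, against 38.5% of the bins more than 20 Mb away. At 22 of 34 ends over 50% of the last 2 Mb was constitutive A. Topologically associated domains (TADs, stretches of preferred contacts), which the authors called on merged replicates, were shorter where at least 90% of the domain was constitutive A than where it was constitutive B. Their median was 380 kb against 520 kb in wild boar GOM, 380 against 560 kb in wild boar ULB, 400 against 560 kb in Bama pig GOM and 380 against 540 kb in Bama pig ULB. With 1 list per group this has no replicate check. By the paper's account, the merged Bama pig ULB reads also included the library of the earlier study, which has no PC1 values here.

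Genes were dense in the members, but the authors had set the sign of PC1 by gene density, which fixes this order. Of 12803 placed genes, 10264 (80.2%) started in constitutive A, 11.13 per Mb, and 1307 in constitutive B, 1.39 per Mb. GC content was 45.2% ± 6.55 in A and 38.7% ± 4.27 in B (mean and SD over bins). For a view within A, the mean PC1 over libraries was ranked among the members of each chromosome (rank 0 to 1) and divided into 5 classes of 184 Mb each, class 1 the lowest and class 5 the highest. From class 1 to class 5, gene density was 5.48, 7.11, 9.46, 11.7 and 21.9 per Mb, and GC content 42.4%, 43.7%, 44.9%, 46.2% and 48.9%. Class 5 thus held 4033 genes (39.3% of the genes in A) and class 1 held 1010 (9.84%).

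Genes in constitutive A were transcribed at a higher level than genes in constitutive B. In wild boars the median TPM in A was 12.6 and 10.2 (GOM) and 10.8 and 12.5 (ULB), and in Bama pigs 16.1 and 14.96 (GOM) and 10.5 (ULB). In B it lay between 0.38 and 0.89, and in the bins of mixed sign between 4.05 and 7.47, so the ranges of the 3 kinds of bin did not overlap. The A minus B difference in median log2(TPM + 0.1) was 4.11 ± 0.25 (SD, n = 7 libraries), positive in 7 of 7 (exact two-sided permutation of signs, p = 0.0156, the smallest possible). The libraries come from 4 pigs, and the labels do not tie them to single animals. Averaged by breed and replicate number, as 4 values, the difference was 4.10 (exact permutation, p = 0.125, the smallest that 4 values allow). All libraries measure the same genes, so these p-values cover the spread between libraries and not the sampling of genes. In A 85.8% of genes had a TPM above 0.1 in all 7 libraries, in B 52.0%, and of the TPM of placed genes 90.04% to 91.6% came from A.

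Within A, the level of a typical gene graded only slightly with PC1 rank. The median TPM was 10.5 ± 2.19 in class 1, followed by 12.6 ± 2.69, 12.6 ± 2.31, 13.1 ± 2.21 and 12.7 ± 2.38 in class 5 (mean and SD of 7 libraries). Class 5 minus class 1 in median log2(TPM + 0.1) was 0.53 and 0.49 (GOM) and 0.09 and 0.22 (ULB) for wild boars, and 0.27 and 0.19 (GOM) and 0.20 (ULB) for Bama pigs. All 7 differences were positive, with a mean of 0.28 ± 0.16 (exact two-sided permutation of signs, p = 0.0156). As 4 values by breed and replicate number the mean was 0.28, with p = 0.125 in the exact permutation, which is not under 0.05. Both wild boar GOM libraries lay above the other 5, but neither the GOM against the ULB (exact permutation, p = 0.2) nor wild boar against Bama pig (p = 0.371) differed beyond the spread of the libraries. Across the genes in A, TPM and PC1 rank had a Spearman coefficient of 0.03 to 0.08 per library.

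The share of detected genes graded more evenly. In the 7 libraries 88.7% ± 1.45, 89.7% ± 1.43, 90.8% ± 1.36, 92.3% ± 1.24 and 93.8% ± 1.17 of genes had a TPM above 0.1 from class 1 to class 5. The difference between classes 5 and 1 was 5.04 ± 1.08 percentage points, from 3.92 to 6.82, positive in 7 of 7 libraries (exact two-sided permutation of signs, p = 0.0156). As 4 values by breed and replicate number it was 4.96 points (exact permutation, p = 0.125). With a TPM above 1 it was 9.28 points over the 7 libraries. In the lower quartile, TPM was 1.12 ± 0.31 in class 1 and 3.48 ± 0.85 in class 5, whereas the upper quartile was 28.8 ± 6.33 and 34.6 ± 5.35. By summed TPM, class 5 gave 44.3% ± 2.46 of the output of A and class 1 5.94% ± 0.54, with 39.3% and 9.84% of its genes.

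**Figure D2:**
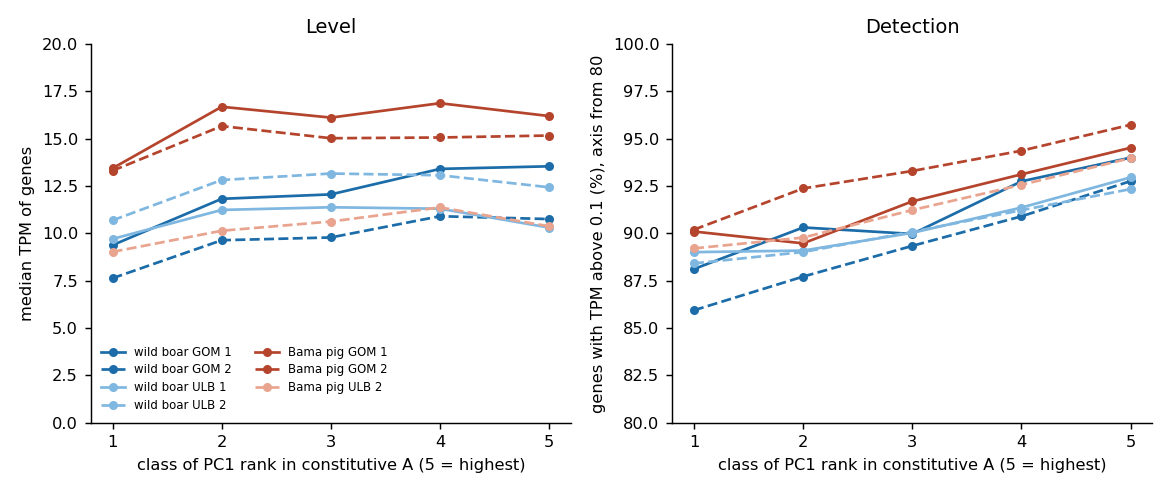
Median TPM (left) and percent of genes with a TPM above 0.1 (right, axis from 80%) against the class of PC1 rank in constitutive A, 1 line per RNA-seq library. Averaged over libraries, the median is 10.5 in class 1 and 12.6 to 13.1 in classes 2 to 5, with single libraries rising or falling among these, while detection rises from 88.7% to 93.8% on average.

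The chromosomes did not share 1 gradient. The mean difference in level between classes 5 and 1 was above 0 on 10 of 17 chromosomes, in all 7 libraries on 9 of them, and below 0 in all 7 libraries on chromosomes 2, 5 and 6. It was lowest on chromosome 5 (-0.77) and highest on chromosome 11 (4.47), where class 1 had 17 genes. With every chromosome given the same weight the mean was 0.85 ± 0.10, against 0.28 over all genes, an alternative chosen after the data were seen. Without chromosome 14 the pooled difference was 0.15 and positive in 6 of 7 libraries, and without chromosome 8 it was 0.21, also in 6 of 7. Detection was higher in class 5 on 14 of 17 chromosomes, from -0.90 to 15.4 points.

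**Figure D3:**
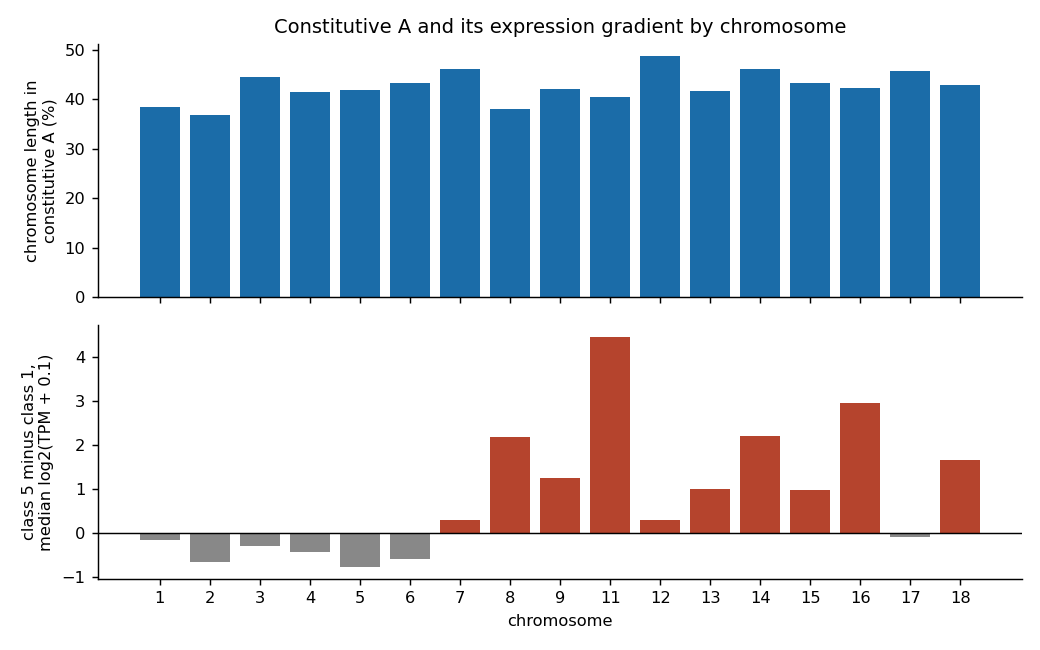
Percent of each chromosome's length in constitutive A (top) and class 5 minus class 1 of PC1 rank in median log2(TPM + 0.1), as the mean of 7 libraries (bottom), by chromosome. The share of A lies between 36.9% and 48.7% on all 17, while the expression difference is below 0 on chromosomes 1 to 6 and 17 (grey bars).

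Pooled over chromosomes, the gradient in level was seen among genes with CpG-poor promoters. A CpG ratio under 0.6 was found for 33.3% of promoters in class 5 and 41.7% in class 1. For these genes the median TPM was 3.57 ± 0.96 in class 1 and 6.45 ± 1.30 in class 5, a log2 difference of 0.85 ± 0.16, positive in 7 of 7 libraries (exact two-sided permutation of signs, p = 0.0156). For genes with a ratio of at least 0.6 the median TPM was 16.1 ± 3.00 and 16.003 ± 2.68, a difference of -0.00066 ± 0.18, positive in 2 of 7 (exact permutation, p = 0.984, range -0.22 to 0.28). The gradients of both classes differed by 0.85 ± 0.19 in 7 of 7 libraries (exact permutation, p = 0.0156). In detection the difference was 6.19 points for the CpG-poor and 3.03 points for the CpG-rich class. This split was chosen after the data were seen. It was not run by chromosome or as 4 values by breed and replicate number.

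**Figure D4:**
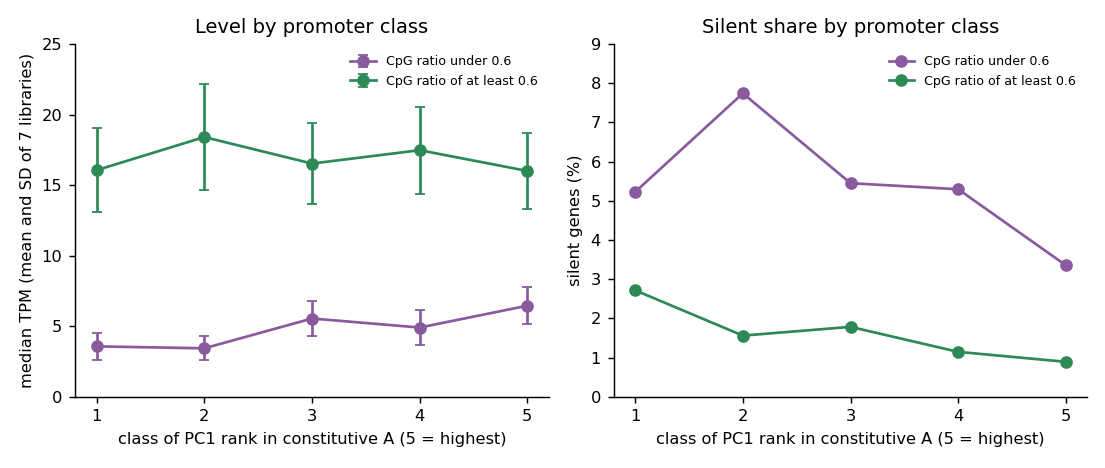
Median TPM with the SD of 7 libraries (left) and percent of silent genes (right) against the class of PC1 rank in constitutive A, for genes with a promoter CpG ratio under 0.6 and of at least 0.6. In the CpG-rich class the level stays between 16.003 and 18.4 TPM. In the CpG-poor class it is 3.57, 3.43, 5.55, 4.91 and 6.45 from class 1 to class 5, higher at the end but not rising at each step.

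Among the 8 genes of highest median TPM in class 5, RPLP1 (chr1:167296084-167298264), RPLP2, RPS21, RPS18 and RPS16 are ribosomal proteins, with median TPM values of 9513, 5071, 4454, 4090 and 3214. LGALS1 had 4459, TPT1 (a growth-related protein whose mRNA is under translational control) 4140 and ARHGEF39 4829. ARHGEF39 varied widely, from 52.1 in Bama pig ULB to 9076 in wild boar GOM replicate 1. In class 1, the leading genes included the matrix genes MGP (matrix Gla protein, an inhibitor of calcification) and FN1 (fibronectin), with median TPM values of 845 and 488. ANXA1 (annexin A1, which dampens inflammation) had 1244, SLC25A3 (the mitochondrial phosphate carrier) 558, ELOVL6 (an enzyme that lengthens fatty acids) 498, BTF3 463, NAP1L1 (a histone chaperone) 456 and SERINC1 364. ELOVL6 lay between 249 and 974 TPM at a PC1 rank of 0.17, so low-ranked members also held strongly expressed lipid genes.

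Adipocyte genes in the members were active with 1 exception. Of 34 measured, 32 were placed and 28 started in constitutive A, where 80.2% of all placed genes started, 16 of them in class 5 and 1, IRS1 (a docking protein of insulin signalling), in class 1. In A their median TPM was 184, and 27 had a TPM above 1 in all 7 libraries. FABP4 (the fatty acid carrier of adipocytes) at 8298, ADIPOQ at 3673 and SCD (stearoyl-CoA desaturase) at 1274 lay in classes 2 and 3, and CIDEC (a protein of the lipid droplet) at 873 in class 5. ADRB3, the beta-3 adrenergic receptor, was the exception, with a TPM of at most 0.24 at a PC1 rank of 0.94. Outside constitutive A, RBP4 (retinol-binding protein, secreted by fat and liver) in constitutive B and LPL (lipoprotein lipase), ACACA (acetyl-CoA carboxylase) and LPIN1 (lipin 1) in bins of mixed sign were expressed too, with median TPM values of 123, 1539, 204 and 47.0. Genes used by all cells were also active wherever they lay in A. All 29 proteasome subunits, all 10 subunits of RNA polymerase II and all 22 core spliceosome genes in A had a TPM above 1 in all 7 libraries, with median values of 94.7, 35.7 and 37.1. Proteasome subunits occurred in class 5 (15 genes, such as PSMB4 at 268) and in class 1 (4 genes, such as PSMD12 at 116).

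Silent genes made up 2.57% of the genes in constitutive A, against 11.4% in constitutive B and 3.98% in bins of mixed sign. From class 1 to class 5 the share was 3.76%, 3.81%, 3.09%, 2.45% and 1.71%, and by chromosome it lay between 1.02% (chromosome 4) and 7.14% (chromosome 17). An estimated count of 0 in all 7 libraries was recorded for 128 of the 264 genes (48.5%), and of at most 3 for 241. A count of 0 allows up to 3 counts, 0.161 to 0.277 CPM at these depths, for counting error only. With TPM below 0.05 as the limit the number was 170, and with 0.5 it was 779. The limit itself was not sharp, since 164 further genes in A had their highest TPM between 0.1 and 0.2. Among the listed genes that could not be placed on the autosomes 20.5% were silent, including 43 of 75 olfactory receptors, so silent genes of large families are missing from these counts.

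Silent genes were shorter and had fewer CG pairs at their promoters than the other genes of A. Their median length was 8.74 kb against 25.4 kb, and their median CpG ratio 0.44 against 0.75, at a GC content of 60.7% against 62.0%. The silent share was 5.34% for promoters with a CpG ratio under 0.2 and 5.61% from 0.2 to under 0.4, and it was 1.18% from 0.8 to under 1 and 1.06% from 1. A CpG ratio of at least 0.6 was still found for 34.1% of the silent genes. The letters TATAAA, on either strand, were present in 12.5% of silent, 7.80% of other A and 8.97% of all placed promoters. GGGCGG was present in 47.7%, 61.9% and 58.2% and CCAAT in 31.1%, 34.9% and 34.8% of the same windows. These matches describe the letters alone.

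Silent genes lay somewhat further from active ones than other genes of A did. The nearest gene start with a median TPM of at least 1 was a median of 43.1 kb away, against 31.8 kb for the other genes of A, and 80.7% and 81.0% had such a start within 100 kb. In the same 20-kb bin 36 silent genes (13.6%) had an active start, compared with 25.8% of the other genes. In constitutive B, where genes are sparse, the median distance was 215 kb for silent and 186 kb for other genes. Their PC1 rank was lower, at a median of 0.58 against 0.71, but 69 of the 264 lay in class 5.

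The 12 silent genes of highest PC1 rank, with at most 2 of a family, included products of blood, brain, bladder and lens. HBZ (embryonic zeta globin, chr3:41490758-41492883) was at 0 in all 7 libraries with its start 2.77 kb from an active one, in a bin with a mean PC1 of 65.7. AGRP (a feeding peptide of the hypothalamus), UPK2 (uroplakin 2, a protein of the bladder lining), CRYGN (a lens crystallin), GNG13 (a G protein subunit of taste and retinal cells), PIANP (a neuronal membrane protein) and MBOAT4 (the enzyme that acylates ghrelin) were also at 0 in all 7. FNDC11, ALOXE3 (a lipoxygenase of the skin barrier), PRR35, PDIA2 (a disulfide isomerase of the pancreas) and HRH3 (a histamine receptor of neurons) reached at most 0.065, 0.031, 0.062, 0.0996 and 0.066 TPM. All of these bins were at a rank of at least 0.95.

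The silent share differed widely between lists of genes of other tissues. In constitutive A 7 of 15 keratins, 4 of 5 clustered defensins, 3 of 5 taste receptors, 7 of 21 neuronal transcription factors, 5 of 18 germ cell genes, 5 of 19 eye genes, 2 of 7 erythroid genes, 1 of 13 claudins, 1 of 15 hormones and 1 of 13 products of enamel, stomach and pancreas were silent, compared with 2.57% of all genes in A. The 3 liver, 3 skeletal muscle and 5 lymphocyte markers in A included no silent gene. None of the 6 genes of A with an interferon symbol was silent, and 2 of those, IFNAR1 and IFNAR2, are receptors and not interferons. Examples at 0 in all 7 libraries were BARHL1, TLX3 and NEUROG3 of the neuronal factors, PRM1, PRM2 and TNP1 of sperm chromatin, and MIP, CRX and LIM2 of the eye. Among the more expressed genes of these lists, median levels were 89.2 TPM for KRT8 and 26.7 for KRT7 (keratins of simple epithelia), 71.2 for CLDN5 (the claudin of endothelium), 42.0 for CLDN3 (a claudin of epithelia), 45.3 for IFNAR1, 8.02 for AKAP3 of sperm and 6.72 for AMBN of enamel. Of the 264 genes, 71 (26.9%) stood in 32 blocks of 2 or 3 neighbouring silent genes, and 193 stood alone.

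The keratin cluster of chromosome 5 and the HOXC cluster held both silent and expressed genes. The silent keratins lay between KRT7 and KRT8, which had median TPM values of 26.7 and 89.2. In the 6-Mb run chr5:13760001-19760000, 7 of 14 keratin genes were silent, with KRT1, KRT77 and KRT3 (chr5:18012922-18082119) as 1 block. KRT8, in the same cluster, gave 363 and 92.3 TPM (GOM) and 10.6 and 2.54 (ULB) in wild boars, and 89.2 and 350 (GOM) and 4.93 (ULB) in Bama pigs. All 4 GOM libraries lay above all 3 ULB libraries for KRT8. About 1 Mb further in the same run, HOXC12, HOXC11 and HOXC10 (homeobox genes of posterior body position) were at 0 in all 7 libraries. Their neighbour HOXC9 gave 0.34 and 0.21 TPM (GOM) and 6.36 and 6.96 (ULB) in wild boars, and 0 and 0.40 (GOM) and 3.49 (ULB) in Bama pigs, so all ULB libraries lay above all GOM libraries. On chromosome 17 the longest run held DEFB129, DEFB125, DEFB115 and DEFB116 (beta-defensins of epithelia) and BPIFB3, BPIFB4 and BPIFA2 (secreted proteins of airway and salivary epithelia) at 0 in all 7 libraries. Among the DEFB and BPIF genes of chromosome 17 in constitutive A, the highest median TPM values were 0 and 0.065. Of the kallikreins of chromosome 6, 5 of 12 were silent, at PC1 ranks from 0.033 to 0.27. The highest median TPM among these 12 was 0.30, for KLK11.

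Some silent members were named after their values were seen. DLK1 (a membrane protein of preadipocytes) had its highest TPM at 0.027, and EPO (erythropoietin) and PSMB11 (a proteasome subunit of the thymus) were at 0 in all libraries. NIPSNAP1, a mitochondrial protein gene found active in most tissues, was listed at a TPM under 0.1 in all 7 libraries. Kallisto divides reads among similar transcripts, and its effect on such values was not tested.

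Between wild boar and Bama pig GOM, edgeR's quasi-likelihood test called 0 of 9480 tested genes in constitutive A, against a background of 0.0241% (4 of 16615 genes) over the table. A call needed more than a 2-fold difference in either direction with an adjusted p under 0.05. An unadjusted edgeR p below 0.05 was reached by 490 of the 9480 genes in A and by 1329 of the 16615 over the table. DESeq2 called 54 in A (0.57%, 31 higher and 23 lower in wild boar) against a background of 1.01%. Without either wild boar GOM library edgeR called more genes in A and over the table, and without either Bama pig GOM library it did not. The ranges for A and for all genes are given in the closing section. Liver transcripts moved with this comparison, for which 6 of 6 markers summed to 11.03 and 7.74 TPM in the wild boar libraries and to 365 and 1123 TPM in the Bama pig libraries (ALB at 6.60, 4.19, 293 and 873). Their part in the result was not tested.

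Between wild boar GOM and ULB, 157 of 9377 genes in A were called (1.67%) against a background of 1.97%. Of these, 101 were higher in GOM (1.08%, background 1.22%) and 56 lower (0.60%, background 0.748%), shares near the background. DESeq2 called 717 in A (7.65%) against a background of 8.14%. Without 1 library, edgeR's numbers in A and over the table were lower in every case, with both ranges in the closing section. From class 1 to class 5 the called share was 1.57%, 2.82%, 1.98%, 1.46% and 1.33%, and the median log2 fold change was -0.15, -0.09, -0.03, 0.11 and 0.25, beside 0.02 over all tested genes.

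Named here are the 5 genes in each direction with the largest fold changes among those whose wild boar libraries did not overlap. GATA5 (a GATA transcription factor) reached 22.5 and 9.24 TPM in the wild boar GOM against 0.042 and 0.043 in the ULB (edgeR adjusted p = 0.00729). With 1.05 and 1.02 counts in the ULB libraries, its ratio of summed counts was 432, with an exact 95% counting interval of 119 to 3573. TCF21 (a transcription factor of visceral mesenchyme), in a bin at a PC1 rank of 0.017, reached 8.19 and 3.07 TPM against 0 and 0.062 (edgeR adjusted p = 0.0285), a count ratio of 206 (36.5 to 8167). CRB2 (an epithelial polarity protein), SERPINE3 (a serine protease inhibitor) and NPPB (a natriuretic peptide) were at 0 counts in both ULB libraries. Against a floor of 3 counts per library they were at least 640-fold, 163-fold and 9.98-fold higher in GOM (edgeR adjusted p = 0.00907, 0.00907 and 0.0430). The rule that named these 5 genes fixed the separation of the wild boar libraries. In each of them both Bama pig GOM libraries lay above the single Bama pig ULB library, for NPPB at 0.36 and 1.17 against 0.21 TPM. The share of all tested genes with this order was not counted.

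Lower in GOM were KERA (keratocan, a proteoglycan of connective tissue) at 2.04 and 1.24 TPM against 89.3 and 68.6, a log2 fold change of -5.43 ± 0.39 (SE, edgeR adjusted p = 0.00683). CRABP2 (a carrier of retinoic acid) had 0.24 and 0.30 against 23.1 and 6.97, a log2 fold change of -5.58 ± 0.93 from 2.03 and 3.01 counts in GOM (edgeR adjusted p = 0.0411). LGALS13 (a galectin) had 2.06 and 0.44 against 36.7 and 64.7 and was at 0 in all 3 Bama pig libraries, with a log2 fold change of -5.19 ± 0.72 (edgeR adjusted p = 0.0261). COMP (a matrix protein of cartilage and tendon) was at 0 counts in both GOM libraries and at 19.9 and 7.18 TPM in ULB, at least 116-fold lower in GOM (edgeR adjusted p = 0.0204). RXFP2 (the receptor of insulin-like peptide 3) had 1.93 and 2.96 counts in GOM, and its counts in ULB were 46.7 times as high (exact interval 19.7 to 145, edgeR adjusted p = 0.0263). Of the lists, 1 of 5 tested keratins (KRT8), 1 of 9 claudins (CLDN3) and 1 of 5 erythroid genes (AHSP) were called higher in GOM, and 0 of 27 adipocyte genes, 0 of 29 proteasome subunits, 0 of 10 polymerase subunits and 0 of 22 spliceosome genes were called.

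**Figure D5:**
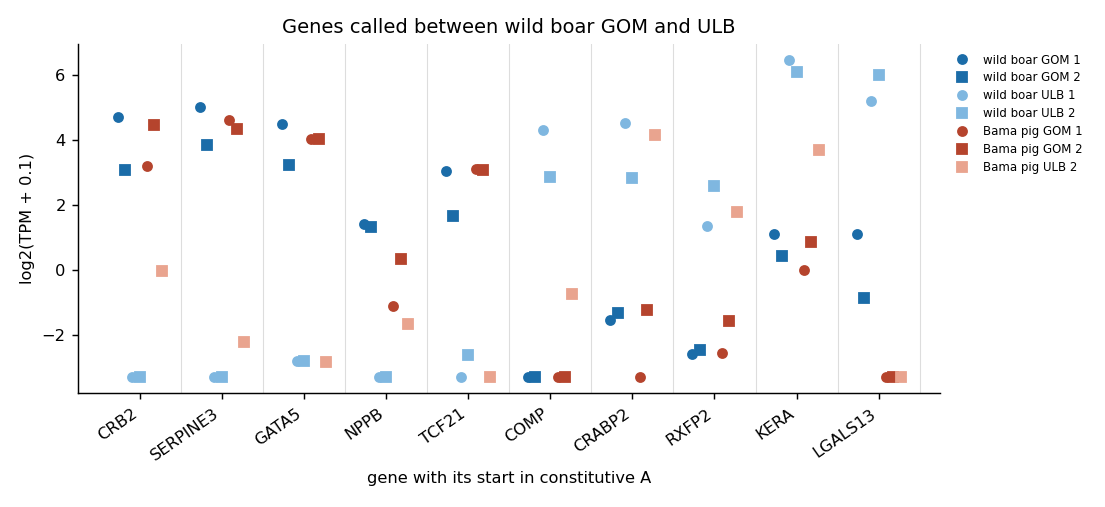
Level as log2(TPM + 0.1) of the 10 genes of constitutive A with the largest called differences between wild boar GOM and ULB, 1 point per RNA-seq library, circles for replicate 1 and squares for replicate 2. The 5 genes on the left are higher and the 5 on the right lower in both wild boar GOM libraries. A value of 0 TPM plots at the lowest level.

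Of the markers of other cell types, WT1, the 1 mesothelial marker of 5 measured, had 72.9 and 19.9 TPM (GOM) and 0 and 0.10 (ULB) in wild boars, and 83.7 and 46.1 (GOM) and 0.25 (ULB) in Bama pigs. Skeletal muscle markers, 3 of 6 measured, summed to 2.03 and 3.799 TPM in the wild boar GOM and to 291 and 6.41 in the ULB, the high value being replicate 1. Macrophage markers summed to 528 and 602 against 228 and 483, lymphocyte markers to 30.2 and 13.7 against 12.1 and 10.04, and endothelial markers to 398 and 417 against 396 and 545. The endothelial sums overlapped between the depots, and edgeR without a block called none of the tested macrophage, lymphocyte, endothelial or muscle markers of constitutive A. With the replicate number as a block, it called 2 of 3 macrophage and 1 of 5 lymphocyte markers higher in GOM. That fit called many more genes, 863 of 9377 in A (9.20%, against 1.67% without a block) and 1623 of 16183 over the table. Of the 863, 558 were higher and 305 lower in GOM. In that fit 2 of 3 muscle markers were called lower and 0 of 3 endothelial markers were called. The part of these cells in the called genes was not tested. Adipocyte markers, 10 of 10, were above 1 TPM in every library and summed to 10210 to 19200 TPM, as the tissue labels state.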

How the data were processed

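Hi-C and RNA-seq values of 7 libraries per assay were used, grouped by breed, depot and replicate number from the labels. The authors aligned Hi-C reads to Sscrofa11.1, applied KR and quantile normalization to the contact matrices, and deposited a score per 20-kb bin and library. It is named an AB index, but its mean is 0 on each chromosome, and it was read as PC1. The TAD lists give the start and end of each domain and no other value. For RNA-seq the authors deposited an estimated count and a TPM value per gene from Kallisto. The paper names another version of Kallisto than the submitters' processing notes (0.43.0). Estimated counts summed to 10833153 to 18627076 per library and were rounded for testing. The PC1 values carry no depth.

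Chromosome 10 was left out. Genes were placed by symbol in the RefSeq annotation of Sscrofa11.1, which placed 13561 of 21280 genes, 13092 on autosomes. None of the 75 olfactory receptors was placed. The chromosome lengths of the reference equal those of the bins. A gene belonged to the bin of its start. Levels were compared as log2(TPM + 0.1), which understates the change of low genes, with exact two-sided permutations of signs over libraries. Breeds and depots were compared by edgeR 4.0.16 (quasi-likelihood test, TMM, Benjamini-Hochberg) in R 4.3.3, over all genes for which 1 of the groups exceeded a TPM of 0.1 in both its libraries, and with DESeq2 1.42.0. Python 3.11.15 with numpy 2.4.6, pandas 2.3.3 and matplotlib 3.10.9 gave the remaining values and plots. The scripts were tested on simulated data. The p-values measure the spread between libraries, which came from 2 pigs of each breed.

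Genes named in the text were those of highest median TPM in classes 5 and 1, silent genes in the bins of highest PC1 rank (at most 2 of a family), genes of the 3 longest runs, called genes with the largest fold change, no overlap between groups and, in the higher one, an average TPM of 1 or more, and listed genes. The bins, gene lists and rules were chosen with earlier results of these data known. Alternatives were other pseudocounts, thresholds, rankings and normalizations, a replicate block and leaving out each library. The promoter sequences of some silent genes are not reported here.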

Additional observations from a re-analysis of the deposited data

How the results depend on the processing

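Of 81 alternatives over all results, 63 kept the direction and the side of the threshold or stayed within 1.5 times the count. The bins kept their number within 1.5 times under all alternatives, from 40632 (PC1 above 5) to 47094 (without 1 library), and the runs under the joining of single gaps. Averaged by breed and replicate number, the A minus B difference was 4.10, the class 5 minus class 1 difference 0.28 and that in detection 4.96 points, all with an exact permutation p = 0.125, because 4 values allow no smaller p. The class 5 minus class 1 difference turned to -0.00066 among genes with a promoter CpG ratio of at least 0.6. Without 1 library the A minus B difference stayed within 4.06 to 4.18, the class 5 minus class 1 difference within 0.24 to 0.31 and detection within 4.75 to 5.23 points. There were then 271 to 325 silent genes and 46257 to 47094 bins, against 264 and 46108 with all 7 libraries. A rule that every library must meet can only keep or raise these numbers when 1 is left out. Silent genes numbered 170 below 0.05 TPM and 779 below 0.5 TPM, by the construction of these limits.

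Calls between the breeds in GOM, over all genes, went from 4 to 167 with DESeq2, 26 without the TPM filter, 1 with all 7 libraries in the fit, 15 with the replicate block, and 0 to 115 without 1 library. In constitutive A these gave 54, 6, 0, 3 and 0 to 40 genes. Calls between wild boar GOM and ULB went from 318 to 1318 with DESeq2, 608 without the filter, 1623 with the replicate block, and 46 to 258 without 1 library, with 717, 309, 863 and 15 to 112 in A. The labels do not say that a replicate number marks an animal, so the block pairs libraries by number alone. With 2 such pairs, the differences between replicates correlated at 0.17 across genes for the depots and 0.16 for the breeds. A fit without 1 library leaves a lone sample that is assumed to vary like the other group. The cause of these shifts was not tested. With 2 libraries against 2, such counts depend strongly on the fit.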
